A study of Mus musculus with 8 samples.

Results

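The microRNAs mmu-miR-582 and mmu-miR-1968 each come from 1 hairpin that lies in an intron of a protein-coding gene, and both were read as mature arms in small RNA libraries from mouse embryoid bodies. Every row of the deposited table that carries either name was taken, which gave 4 mature miRNAs (mmu-miR-582-3p, mmu-miR-582-5p, mmu-miR-1968-5p and mmu-miR-1968-3p) of the 1099 listed. The pair was selected on a rise with doxycycline (Dox) in these same libraries. Their levels with and without Dox are therefore a description and carry no test, whereas their course over days was not used in that choice.

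The cells had the genotype KH2-DGCR8 and came from KH2, a mouse embryonic stem cell line built to carry transgenes that Dox switches on, and the study overexpressed the DGCR8 protein in them. DGCR8 protein was not measured by these libraries. Embryoid bodies, aggregates in which stem cells begin to differentiate, were sampled at days 0, 1, 2 and 4 with Dox or without it, and both arms carried the same genotype. Each of the 8 conditions had 1 library, so no value has a replicate of its own condition, and the sources used here do not give the length of Dox exposure. No library used here had Dox without the DGCR8 genotype, so Dox itself and DGCR8 cannot be told apart.

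DGCR8 binds the RNA-cutting enzyme DROSHA to form the Microprocessor, which frees miRNA hairpins from long nuclear transcripts. An intronic hairpin can be cut from the unspliced RNA of its host gene. DICER then removes the loop and leaves a short duplex, of which one strand, from the 5p or the 3p side of the hairpin, is usually kept by an Argonaute protein. The kept strand finds target messenger RNAs mainly through its seed.

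Sequences and positions below are from RefSeq, build GRCm38.p6, in which 926 of the 1099 miRNAs of the table were found (84.3%). The mature members are shown because each has a seed (bases 2 to 8, in capitals) that no other mouse miRNA of the RefSeq table had.
mmu-miR-582-5p: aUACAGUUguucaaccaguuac
mmu-miR-582-3p: uAACCUGUugaacaacugaac
mmu-miR-1968-5p: uGCAGCUGuuaaggaugguggacu
mmu-miR-1968-3p: aCCACCUCugcagcuguuaag
A seed of its own was not unusual, since 643 of those 926 miRNAs (69.4%) had one. The longest run that a member shared with a mature miRNA of any other hairpin was 10 bases for mmu-miR-582-5p, mmu-miR-1968-5p and mmu-miR-1968-3p and 8 bases for mmu-miR-582-3p, among 1677 compared. None of the 4 therefore has an identical copy from another hairpin in that table. Copies that differ at single bases were not searched for, and the length of an unbroken run cannot exclude them.

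The mmu-mir-582 hairpin (chr13:109324744-109324824, plus strand) lies in sense orientation within Pde4d (ENSMUSG00000021699.17), which encodes a phosphodiesterase that breaks down cyclic AMP. In GENCODE M21, 4 of the gene's 12 coding transcripts span it, and in the longest of them it sits in intron 3, which is 707689 bases long. The mmu-mir-1968 hairpin (chr8:13189031-13189098, minus strand) lies within Grtp1 (ENSMUSG00000038515.10), a gene of the TBC domain family, again in sense. All 4 coding transcripts of Grtp1 span it, and in the longest it sits in intron 4, which is 2643 bases long. In these longest transcripts, the upstream exon of Grtp1 ends 524 bases before the hairpin, against 292046 bases in Pde4d. Among the other spanning transcripts of Pde4d that distance was as short as 63798 bases, whereas it was 524 in all those of Grtp1. A further hairpin, mmu-mir-1904, lies within Pde4d and was not analysed here. Messenger RNA of neither host was measured by these libraries.

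**Figure D1:**
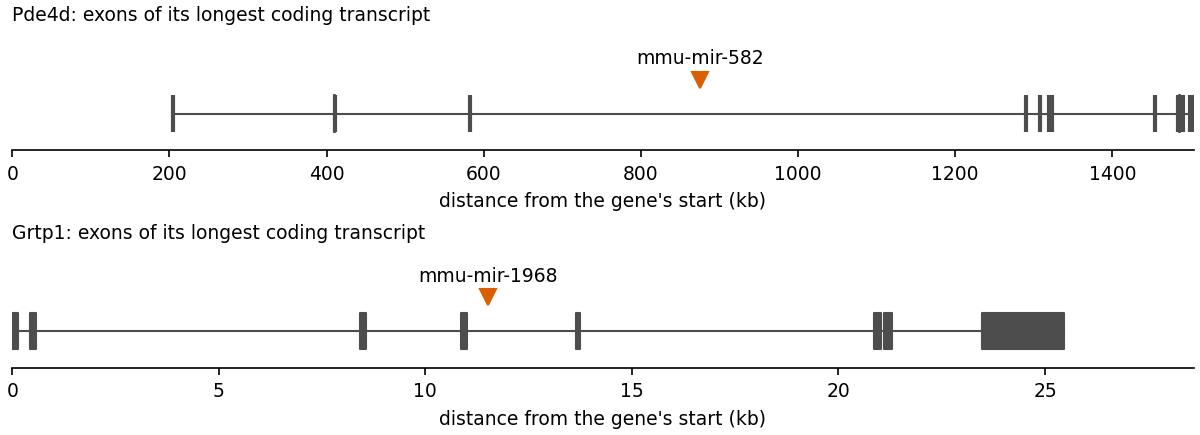
Position of the 2 hairpins (orange triangles) within their host genes, in kilobases (kb) from the start of each gene in its reading direction; dark marks are the exons of the longest coding transcript. The hairpin of miR-582 stands in a gap between exons of 707689 bases and that of miR-1968 in one of 2643 bases, and the 2 axes differ in scale.

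The whole hairpins are shown next, 5′ to 3′ with both mature arms in capitals, because the loop between the arms and the arms themselves differ in features that could be read from sequence.
mmu-mir-582: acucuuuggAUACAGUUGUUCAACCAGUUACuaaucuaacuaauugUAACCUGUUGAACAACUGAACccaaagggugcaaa
mmu-mir-1968: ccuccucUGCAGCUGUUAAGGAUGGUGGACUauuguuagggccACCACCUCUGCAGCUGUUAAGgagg
The loop is 15 bases long in mmu-mir-582 and 12 in mmu-mir-1968, against a median of 16 over 644 mouse hairpins with both arms in RefSeq. DGCR8 is known to recognise the apical part of hairpins, where the motif UGU is a described feature. On the strand of the hairpin, UGU was found between the arms of mmu-mir-1968 and not between those of mmu-mir-582, where it instead spanned the start of the 3p arm. It stood between the arms in 203 of the 644 hairpins (31.5%), and between them or within 2 bases of them in 258 (40.1%). These are matches of letters only.

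The arms of mmu-mir-1968 hold a direct repeat, shown here in capitals.
mmu-miR-1968-5p: UGCAGCUGUUAAGgaugguggacu
mmu-miR-1968-3p: accaccucUGCAGCUGUUAAG
The shared run is 13 bases long and takes bases 1 to 13 of the 5p arm and bases 9 to 21 of the 3p arm. Among the 644 hairpins no other had arms that share so long a run. The next was Mir497 with 11 bases, and the median was 4, which is also the value of mmu-mir-582. The seed of mmu-miR-1968-5p thus also occurs inside mmu-miR-1968-3p, but outside its seed.

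Levels are given in RPM, miRNA reads scaled to a common total, and the 8 libraries summed to between 999965 and 1000047. The values could be turned back into whole reads, with implied totals of 362483 to 541342 reads per library, so that 3 reads correspond to between 5.54 and 8.28 RPM. These totals are the smallest that the values allow. In 6 of the 8 libraries a larger total was also found, which would give more reads and narrower intervals. The search had an upper limit, so still larger totals were not examined for any library. Intervals are exact 95% intervals on these reads (Poisson for a level, conditional binomial for a ratio, Clopper-Pearson for a share) and cover counting error only. The miR-290 family markers of embryonic stem cells (12 rows) had a sum of 457973 RPM at day 0 and 161283 at day 4 without Dox. With Dox these sums were 402446 and 227024. The 7 rows of the epiblast markers miR-302 and miR-367 reached 33328 RPM by day 4 in the library without Dox and 2238 in its Dox counterpart. Fibroblast feeder markers (8 rows) ranged from 1823 to 3640 RPM in libraries without Dox and from 2415 to 2755 in Dox libraries. Muscle markers (3 rows, 1 at 0 in all libraries) reached at most 130 RPM, blood markers (3 rows) 95, and the liver miRNA miR-122 (1 row) 4 RPM, while neural markers (4 rows) lay between 3102 and 7449. The part of these differences in the members' values was not tested.

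mmu-miR-582-3p was the more abundant arm of its hairpin. Its level at days 0, 1, 2 and 4 was 177, 225, 294 and 149 RPM in the libraries without Dox, from 73, 101, 124 and 54 reads. In the Dox libraries it was 336, 545, 517 and 567 RPM, from 123, 282, 243 and 307 reads. All 4 Dox libraries lay above all 4 without Dox, and the nearest pair was Dox day 0 with 336 RPM and day 2 without Dox with 294. The level was 211 ± 63.5 RPM without Dox and 491 ± 106 with it (SD over the 4 days, which are not replicates).

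mmu-miR-582-5p followed at lower abundance. Its levels were 39, 27, 43 and 33 RPM in the libraries without Dox, and 101, 73, 79 and 79 RPM in the Dox libraries. These levels rested on 12 to 43 reads, and again no Dox library fell among those without Dox. The means over days were 35.5 ± 7.0 and 83.0 ± 12.3 RPM.

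mmu-miR-1968-5p had levels of 233, 198, 119 and 105 RPM in the libraries without Dox, from 96, 89, 50 and 38 reads. Its levels in the Dox libraries were 631, 348, 234 and 212 RPM, from 231, 180, 110 and 115 reads. The Dox library was the higher of the 2 on each day, but the groups overlapped, because day 4 with Dox (212 RPM) lay below day 0 without Dox (233 RPM). The means over days were 164 ± 61.7 and 356 ± 193 RPM.

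mmu-miR-1968-3p was close to the limit of detection. It was listed at 0 without Dox at days 0, 2 and 4, and with Dox at day 4. With 3 reads taken as the most that a count of 0 allows, which is a separate rule from the 95% intervals, these limits are 7.27, 7.12, 8.28 and 5.54 RPM. The remaining libraries held 1 read (day 1 without Dox, days 1 and 2 with Dox) or 3 reads (day 0 with Dox, 8 RPM). No difference between treatments was detectable for this arm at this depth, and on day 1, the only day with a read in both libraries, the counting interval of the ratio ran from 0.0111 to 68.2. The 5p arm of the same hairpin had 38 to 231 reads in those libraries.

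**Figure D2:**
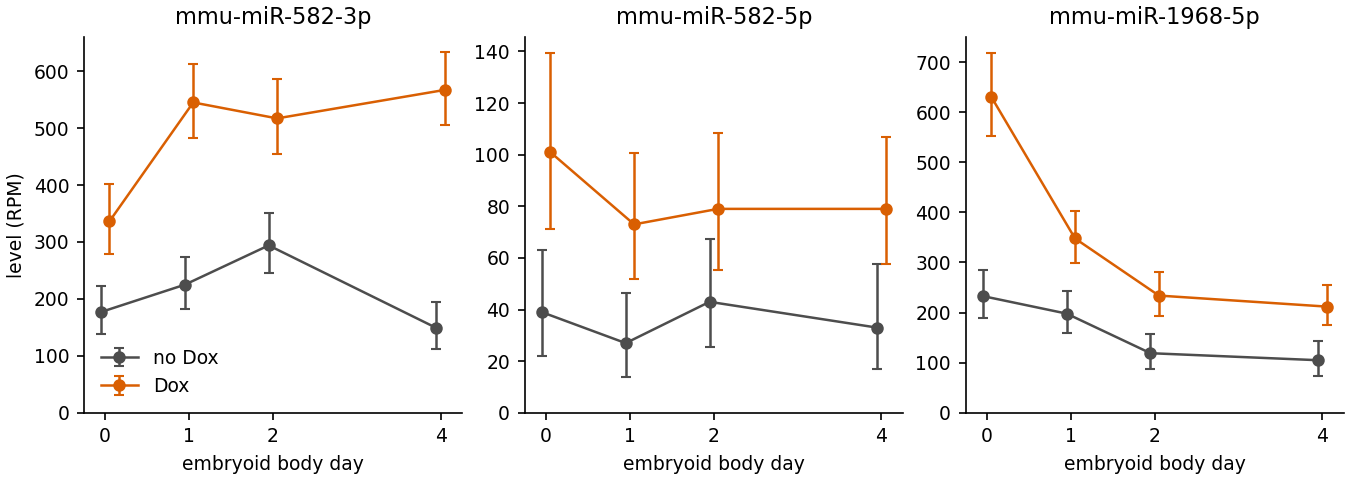
Level of 3 members in RPM against embryoid body day, without Dox (grey) and with Dox (orange); each point is 1 library and bars are 95% counting intervals. mmu-miR-582-3p and mmu-miR-582-5p have all Dox points above all no-Dox points, whereas mmu-miR-1968-5p goes from 233 to 105 RPM in the grey points and from 631 to 212 in the orange ones.

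Since the members were chosen for being higher with Dox, the shares that follow only describe where they lie among the 839 miRNAs that passed the filter on low values (at least 1 RPM in 2 libraries). Both arms of miR-582 and miR-1968-5p passed it in each treatment, whereas miR-1968-3p reached 1 RPM in 1 library without Dox and 3 with it, and so passed only through the Dox libraries. Of these 839, 11 (1.31%) had every Dox library above every library without Dox, both arms of miR-582 among them. A further count, of miRNAs higher with Dox on all 4 days, gave 58 of 839 (6.91%) and included miR-582-3p, miR-582-5p and miR-1968-5p. Over all 839, limma's moderated test called 11 (1.31%) as higher with Dox and 5 as lower, and no call is read from it for the members, since they were chosen on this contrast. Its 16 calls became 0 without the robust option, with no trend or with no day term (71, 62 and 25 at an unadjusted p under 0.05), or 1 when either day 2 library was left out. The mean log2 difference between Dox and no Dox was 1.23 for miR-582-3p, 1.21 for miR-582-5p and 1.06 for miR-1968-5p, with a median of 0.03 over all tested. That of miR-1968-3p was 1.19, a value not comparable with that median, given how it passed the filter, and one that depended on the pseudocount, being 1.60 with a pseudocount of 0.5 and 0.47 with 5.

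By day, the ratio of miR-582-3p was 1.90 (95% interval 1.41 to 2.57), 2.43 (1.93 to 3.08), 1.76 (1.41 to 2.20) and 3.81 (2.84 to 5.18) at days 0, 1, 2 and 4. The interval of day 4 overlapped that of day 1, but neither that of day 0 nor that of day 2. Between days 2 and 4 the level without Dox went from 294 to 149 RPM, and with Dox from 517 to 567. Between days 0 and 4 it went from 177 to 149 RPM without Dox and from 336 to 567 with it. For miR-582-5p the ratios were 2.61, 2.75, 1.84 and 2.40, with intervals that overlapped on all days and a lowest bound of 1.02 at day 2. miR-1968-5p had its highest ratio at day 0, at 2.71 (2.13 to 3.48). On the later days it was 1.76 (1.36 to 2.29), 1.97 (1.40 to 2.81) and 2.03 (1.39 to 3.01), all with intervals that overlap that of day 0. Whether the ratios differed between days beyond the variation between cultures was not tested. Over all 839 miRNAs, between 15.4% and 18.5% had a log2 ratio of at least 1 on a given day.

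**Figure D3:**
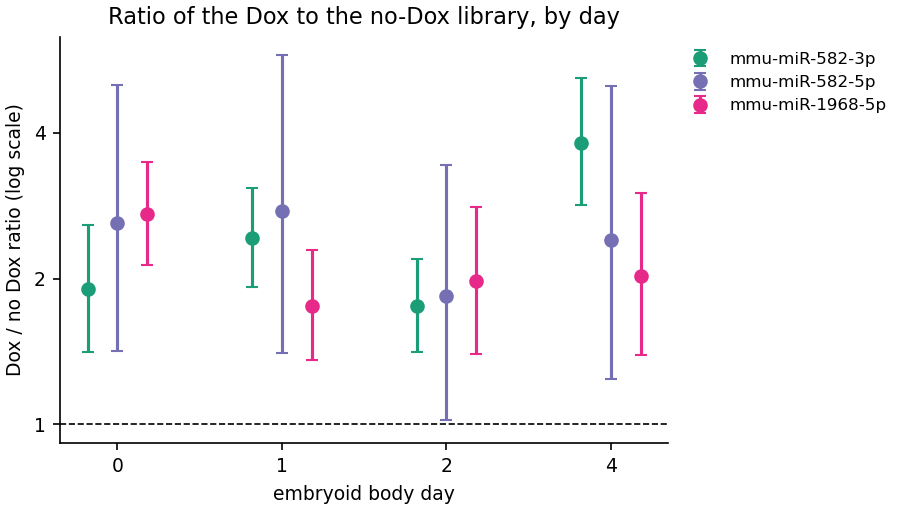
Ratio of the Dox to the no-Dox library at each embryoid body day for 3 members (colours), on a log axis; points are single pairs of libraries, bars are 95% counting intervals and the dashed line marks a ratio of 1. All 12 intervals lie above 1, from a lowest bound of 1.02 for mmu-miR-582-5p at day 2, and the ratio of mmu-miR-582-3p at day 4 (3.81) is the highest. The members were chosen for being higher with Dox in these libraries, so the place of the intervals above 1 is no test.

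The 8 libraries were also ordered by level, and neighbouring libraries were compared by counting error alone. Neighbours are the closest pairs by construction, so an interval that includes 1 says nothing of pairs further apart. For miR-582-3p, 6 of the 7 neighbouring pairs had a ratio whose interval included 1, and the exception was day 2 with Dox (517 RPM) over day 0 with Dox (336 RPM). For miR-582-5p all 7 neighbouring pairs included 1. For miR-1968-5p, 4 of 7 did. The pairs set apart were day 0 over day 1 with Dox (631 and 348 RPM), day 1 over day 2 with Dox (348 and 234 RPM) and day 1 over day 2 without Dox (198 and 119 RPM). In rank, miR-582-3p lay between places 133 and 241 of a library, miR-1968-5p between 115 and 270, and miR-582-5p between 231 and 392.

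The course over embryoid body days was tested next, since the choice of the members did not use it. miR-1968-5p fell from day 0 to day 4 by 1.36 on the log2 scale (SE 0.37, 95% interval -2.08 to -0.63, limma adjusted p = 0.00189). The day 4 level was 0.451 of the day 0 level without Dox (0.301 to 0.662) and 0.336 with Dox (0.267 to 0.423), so the direction was the same in both treatments. Of the 839 miRNAs, 32 (3.81%) passed as lower at day 4 and 184 as higher, so that 25.7% were called in all and the median change was 0.56. Without the day 0 library without Dox, 118 were called. Only 35 of the 839 had a more negative change than miR-1968-5p, 1 of them miR-1968-3p.

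The level of miR-1968-5p was lower on each day than on the one before in both treatments, a pattern looked for after its values were seen that 7 of 839 miRNAs (0.834%) had. Not every step was beyond counting error. From day 0 to day 1 the ratio was 0.850 (0.630 to 1.15) without Dox and 0.551 (0.451 to 0.672) with it. From day 1 to day 2 it was 0.599 (0.415 to 0.857) and 0.673 (0.526 to 0.858), and from day 2 to day 4 it was 0.884 (0.564 to 1.37) and 0.908 (0.693 to 1.19). Without Dox, the step from day 1 to day 2 was thus the only one whose interval left out 1, and with Dox the first and second steps were. In the F test for any difference between days, miR-1968-5p passed (limma adjusted p = 0.00363), as did 251 of 839 (29.9%), or 156 without the day 2 library without Dox.

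The call of miR-1968-5p leaned on the day 0 library with Dox: without it the log2 change was -1.10 and the adjusted p 0.137. The adjusted p for day 4 was also above 0.05 with no mean-variance trend (0.0715), with no treatment term (0.0612) and without days 1 and 2 (0.181), and that of the F test was 0.179, 0.152 and 0.151 without that library, without the trend and with no treatment term.

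Neither arm of miR-582 passed a test over days. The log2 change of miR-582-3p from day 0 to day 4 was 0.25 (SE 0.35, 95% interval -0.43 to 0.94, limma adjusted p = 0.655), and for any difference between days the adjusted p was 0.375. Without Dox the arm was highest at day 2, at 1.66 times its day 0 level (1.24 to 2.25), and its day 4 level was 0.506 of that at day 2 (0.361 to 0.702). With Dox the highest level was at day 4, at 1.69 times that of day 0 (1.36 to 2.10). Without Dox the day 4 level was 0.842 of that of day 0 (0.581 to 1.21), and the tested change of the arm is a mean over both treatments. The sign of its mean change from day 0 to day 4 also depended on scaling, being -0.34 with median-of-ratios scaling and -0.25 when the reads of the miR-290 cluster were left out of the library totals. miR-582-5p had a log2 change of -0.29 (SE 0.50, interval -1.27 to 0.69, adjusted p = 0.739; F test 0.822), or -0.88 and -0.79 under the same scalings. miR-1968-3p had one of -1.58 (SE 1.11, adjusted p = 0.337; F test 0.588), which rests on at most 3 reads in a library. The change of miR-1968-5p was -1.95 and -1.86 under those scalings, which brought the median of all miRNAs from 0.56 to 0.01 and 0.12. They also moved the calls for day 4 to 101 higher and 61 lower (median of ratios) and to 107 higher and 57 lower (outside the miR-290 cluster).

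**Figure D4:**
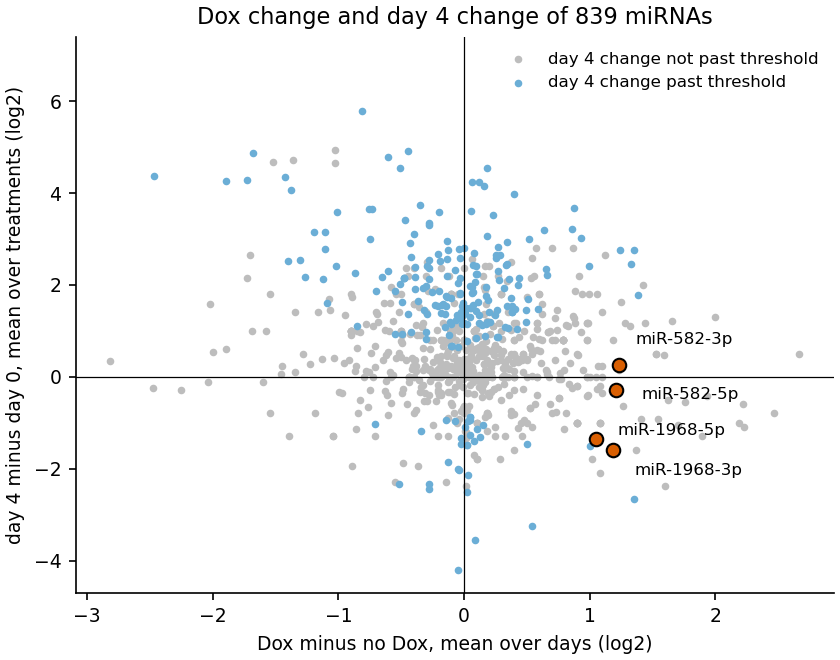
Each point is 1 of the 839 miRNAs tested: the x axis is the mean log2 difference between Dox and no Dox over 4 days, the y axis the mean log2 difference between day 4 and day 0 over both treatments, and blue marks an adjusted p under 0.05 for the latter. The 4 members (orange) lie between 1.06 and 1.23 on x, by which they were chosen, and between 0.25 (miR-582-3p) and -1.58 (miR-1968-3p, not past the threshold) on y, with miR-1968-5p at -1.36.

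The balance of the 2 arms of miR-582 was compared between treatments, because a hairpin's arm ratio was not used to choose it. The 5p arm made up 18.1%, 10.7%, 12.8% and 18.1% of miR-582 RPM without Dox at days 0, 1, 2 and 4, and 23.1%, 11.8%, 13.3% and 12.2% with Dox. It was the minor arm in all 8 libraries, and the groups overlapped. The mean was 14.9% ± 3.76 without Dox and 15.1% ± 5.37 with Dox (SD, n = 4 days), a difference of 0.187 percentage points with an SD of 4.54 between days. An exact paired permutation test over days, two-sided, gave p = 0.875, in a design whose smallest possible p is 0.125. Counting intervals of single libraries were wide, such as 9.76% to 29.6% at day 4 without Dox and 9.04% to 16.2% with it. Per library, miR-582-3p was between 3.33 and 8.33 times as abundant as miR-582-5p.

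**Figure D5:**
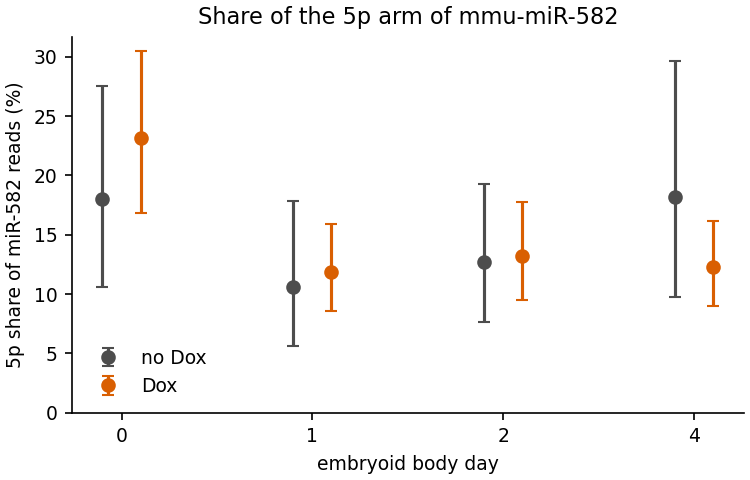
Share of implied miR-582 reads that came from the 5p arm (%), against embryoid body day, without Dox (grey) and with Dox (orange); each point is 1 library and bars are exact 95% binomial intervals. The intervals of the 2 treatments overlap on each day, and the shares lie between 10.6% (day 1 without Dox) and 23.1% (day 0 with Dox).

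The courses of the members were then compared with each other. With Dox, the day 4 level was 1.69 times that of day 0 for miR-582-3p and 0.336 times for miR-1968-5p. Without Dox these ratios were 0.842 (0.581 to 1.21) and 0.451. Over the 8 libraries, Pearson's r of the log2 levels was 0.80 for the arms of miR-582, 0.45 for miR-582-3p with miR-1968-5p, and 0.71 for miR-582-5p with miR-1968-5p. These values hold the difference between treatments by which the miRNAs were chosen. After each treatment was centred on its own mean they were -0.16, -0.46 and 0.24. All these values of r are descriptions over 8 libraries that share days and total scaling. The levels of miR-582-5p rested on 12 to 43 reads, and each of its ratios between days within a treatment had an interval that included 1. Its low r after centring therefore does not show that its course differed from that of another member.

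Among the other 496 miRNAs whose mean level reached 10 RPM, those most like miR-582-3p over the 8 libraries were miR-196b-5p (r = 0.94, or 0.74 after centring), miR-196a-5p (0.93 and 0.65) and miR-196a-1-3p (0.92 and 0.74), which lie in Hox gene clusters. The level of miR-196a-5p was 487, 665, 626 and 422 RPM in the libraries without Dox and 948, 1006, 1032 and 879 in those with it. Like miR-582-3p, it was lower at day 4 than at day 2 without Dox. With Dox it was again lower at day 4 (879 against 1032 RPM), whereas miR-582-3p went from 517 to 567 RPM. The level of miR-196b-5p was close to that of miR-196a-5p in each library, at 441, 627, 643 and 422 RPM without Dox. With Dox the level of miR-196b-5p was 853, 921, 978 and 831 RPM. The likeness of miR-196a-5p and miR-196b-5p to miR-582-3p is therefore not read as independent. Whether they share reads was not tested.

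Most like miR-1968-5p were miR-194-5p (r = 0.85, or 0.90 after centring) and miR-192-5p (0.83 and 0.72), miRNAs known from endodermal epithelia. The level of miR-194-5p was 271, 209, 78 and 88 RPM in libraries without Dox and 301, 259, 166 and 122 in Dox libraries, so it too was lowest at days 2 and 4. The third was miR-3063-3p (0.79 and 0.54).

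For miR-582-5p the 3 most like were miR-3063-3p (0.89 and 0.38), miR-700-3p (0.83 and -0.51) and miR-196a-5p (0.83 and -0.16). All 3 values of r were lower after centring, and 2 of them turned negative. miR-3063-3p stood at 2 to 6 RPM without Dox, under the level of 3 reads.

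Other intronic miRNAs were set beside the members, using a list of miRNAs with well-known protein-coding hosts. Of the 78 list members tested, 0 were called with Dox in either direction, against 16 of all 839 miRNAs, and their median log2 Dox difference was -0.07. 4 of the 78 (5.13%) were higher with Dox on all 4 days, against 6.91% of all tested, and 0 had Dox libraries that were all above those without Dox, against 1.31%. For day 4 against day 0, 21 of the 78 passed as higher (26.9%, against 21.9% of all tested) and 0 as lower (against 3.81%), with a median of 0.53 against 0.56 over all miRNAs. With the median-of-ratios scaling these counts were 6 and 3 and the list median was -0.01, and with scaling outside the miR-290 cluster they were 8 and 3, with 0.04. The list's largest called change was that of miR-653-5p, an intronic miRNA of the calcitonin receptor gene Calcr. Its values were 0, 0, 12 and 77 RPM in libraries without Dox and 0, 4, 6 and 6 in Dox libraries. miR-326-3p of Arrb1, which encodes a beta-arrestin, rose by 2.51 (SE 0.76, limma adjusted p = 0.00623). Its values were 5, 9, 76 and 72 RPM in libraries without Dox, against 5, 2, 23 and 15 in Dox libraries. miR-652-5p, miR-504-5p and miR-342-5p, the other named calls for day 4, rested on at most 10 reads in a library. By Dox difference the most extreme in the list were miR-98-3p at 1.41, miR-326-3p at -1.40, miR-489-3p at -1.35, miR-101b-5p at -1.19 and miR-342-5p at -1.11, and apart from miR-326-3p these rested on at most 10 reads in a library.

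The same was done for all miRNAs whose hairpins lie in an intron of a sense protein-coding gene by GENCODE, with the members left out. Of 246 tested, 0 were called with Dox in either direction, 9 (3.66%) were higher with Dox on all 4 days, against 6.91% of all tested, and 2 (0.813%) had Dox libraries all above those without Dox, against 1.31%. Those 2 were miR-3086-5p and miR-7687-5p, named after their values were seen, and both passed the filter only through the Dox libraries, being at or under 2 RPM in each library without Dox. The members, intronic and chosen for being higher with Dox, were left out of the 246 but not of all tested. This lowers the Dox shares of the list by construction, so no difference from all tested is read from them. At day 4, 36 of the 246 passed as higher (14.6%, against 21.9% of all tested) and 3 as lower (1.22%, against 3.81%), with a median of 0.30 against 0.56. With median-of-ratios scaling 12 were higher and 7 lower, with a median of -0.01, and with scaling outside the miR-290 cluster 14 were higher and 7 lower. The list leaves out miR-1968-5p, an intronic member that was called lower at day 4. Neither list of intronic miRNAs was matched by level to all tested, so no difference in the day 4 shares or medians is read either. The 3 lower were miR-146b-5p (log2 change -1.27, SE 0.31, limma adjusted p = 4.01e-04), miR-672-5p (-0.95, SE 0.31, adjusted p = 0.0129) and miR-3073a-3p (-3.25, SE 1.18, adjusted p = 0.0257), and were also named after their values were seen. The level of miR-146b-5p was 938, 887, 574 and 298 RPM in libraries without Dox and 812, 829, 551 and 438 in Dox libraries, a mean Dox difference of 0.05 on the log2 scale against 1.06 for miR-1968-5p. miR-3073a-3p was at most 14 RPM.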

How the data were processed

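Small RNA libraries of KH2-DGCR8 embryoid bodies (4 days, with or without Dox, 1 library per condition) were analysed from 1 deposited table. Its values are scores deposited by the authors as whole numbers, read here as RPM rounded to whole numbers, since the libraries sum to between 999965 and 1000047. Bowtie and build mm10 are named, without role, in the submitters' processing notes; the counting tool, like the handling of reads with several matches, was not given in the sources used here. 1 row that names no miRNA was left out. For each library, the smallest read total was taken for which every value is a rounded whole number of reads and the reads sum to that total. For 6 of the 8 libraries larger totals within the range searched fitted too, and totals above that range were not examined.

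The 839 miRNAs that reached 1 RPM in 2 or more libraries were fitted as log2(value + 1), with treatment and day as a factor, in limma 3.58.1 (R 4.3.3) using its trend and robust options; p-values were adjusted over all 839 by Benjamini-Hochberg, with a threshold of 0.05. The model has 3 residual degrees of freedom, and the spread of all except 39 miRNAs was taken from the trend. No label states that the libraries are separate cultures. With 1 library per condition, the residual is the departure from additive effects of treatment and day. A Dox effect that differs between days is part of it and cannot be told apart from noise. The p-values measure only this spread, which may also be technical. Intervals and the permutation test used scipy 1.17.1 in Python 3.11.15. The search for read totals and the fit were also run on simulated libraries. Those for the fit held day 4 changes only and no Dox effect, so they do not give the error rate of the fits reported here. The members and lists were chosen with earlier results of these data known. Named miRNAs are the members, the 3 most like each, up to 5 of the intronic list by day 4 change among those called and up to 5 by Dox difference, and those stated to be named after their values were seen. Alternatives covered the pseudocount, filter, scaling, variance model, model terms and left-out libraries.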

Additional observations from a re-analysis of the deposited data

How the results depend on the processing

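Counts of calls depended on the variance model and on single libraries. For day 4 against day 0, 216 miRNAs were called; 3 were called with no mean-variance trend, 0 without days 1 and 2 (176 at an unadjusted p under 0.05 in limma), and between 118 and 218 with 1 library left out, the lowest without day 0 without Dox. For any difference between days, 251 became 125 without the robust option, 0 with no trend (228 at an unadjusted p under 0.05 in limma), and 156 to 300 with 1 library left out, the lowest without day 2 without Dox. For Dox, 16 became 0 without the robust option, 0 with no trend and 0 with no day term (71, 62 and 25 at an unadjusted p under 0.05 in limma), and 1 to 12 with 1 library left out, with 1 when either day 2 library was left out. limma-voom on the implied reads called 20.

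The members' Dox difference, whose direction their choice fixed, ran from 1.00 to 1.37 for miR-582-3p, 1.13 to 1.33 for miR-582-5p and 0.93 to 1.14 for miR-1968-5p over 18 alternatives, and from 0.47 to 1.60 for miR-1968-3p over 17, since its mean is under 10 RPM. The day 4 change of miR-1968-5p was negative in all 19 alternatives, from -1.95 to -1.10, and stayed past the threshold in 15 (adjusted p from 3.61e-06 to 0.181). That of miR-582-3p changed sign under both scalings (-0.34 and -0.25) and ran from -0.21 to 0.71 with 1 library left out, lowest without day 4 with Dox; the adjusted p was at least 0.189. Those of miR-582-5p and miR-1968-3p kept their sign, with adjusted p of at least 0.215 and 0.243. The difference in arm share of miR-582 was 0.261 percentage points on implied reads and -0.0193 as a log2 ratio of 5p to 3p, and ran from -1.44 to 2.22 with 1 day left out, so no direction held; the cause was not tested. miR-1968-3p and, in part, miR-582-5p are limited by depth.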
